A study of Rattus norvegicus with 4 samples.

Results

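Of 20174 gene probes on the arrays, 312 had a high signal in cells given IPTG alone and a lower one both in cells without additions and in cells given IPTG together with zinc. They were chosen from the 12781 probes (2.44% of these, and 5.36% of the 5823 that reached 50 with IPTG alone) that the authors' deposited table lists on all 4 arrays. That table holds a normalized spot intensity on a linear scale with a median of 25 on each array. The limits were a value of 50 or more with IPTG alone, at least 2 times the value without additions, and at least 2 times the value with IPTG and zinc. The cells were Rat-1·RasValA1, a stable line of rat embryonic fibroblasts that carries the activated Ras allele HrasG12V behind a promoter induced by IPTG. All cultures spent 24 h in serum-free DMEM with bovine serum albumin. 1 culture had nothing added, another received IPTG at 5 mM, the next received ZnCl2 at 3 µM, and the last received both at these doses.

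There was 1 array for each condition; differences therefore have no replicate check, and none was tested. The array with IPTG alone enters the rule on both sides. A single array or culture that deviates would therefore give the same pattern as a response to IPTG that zinc lowers. Every culture carried the inducible allele, so IPTG itself and induced HrasG12V cannot be told apart here. The probes carry Ensembl identifiers, for which gene names were not at hand in the tables used. Members are therefore given by identifier and without roles, the probe of Hras was not identified, and fibroblast markers were not checked.

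Hras is a small GTPase at the inner face of the plasma membrane. In its activated form it drives the RAF-MEK-ERK kinase cascade and, through it, transcription factors of the AP-1 and ETS families, which switch on genes of growth and matrix remodelling in fibroblasts. IPTG is a lactose analogue that releases the bacterial lac repressor from its operator. Zinc is a structural and catalytic ion of many proteins, and mammalian cells sense a surplus of it through the factor MTF-1, which induces metallothioneins.

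The members were unevenly spread over the blocks of spots. The scanner files number 24 blocks and do not say how these lie on the array. In blocks 1 to 6, 36 of 1397 probes at 50 or more with IPTG alone were members (2.58%). The share was 61 of 1527 (3.99%) in blocks 7 to 12 and 71 of 1424 (4.99%) in blocks 13 to 18. In blocks 19 to 24 it was 144 of 1475 (9.76%), and these blocks held 46.2% of all members.

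The differences between arrays ran along the blocks in the same way. Among the 5823 probes at 50 or more with IPTG alone, the median log2 difference between IPTG alone and no addition was -0.02 in block 1 and 0.81 in block 24. The median difference between IPTG with zinc and IPTG alone went from 0.27 in block 1 to -0.58 in block 24. The array with zinc alone, set against that without additions, went from -0.65 to 0.14. The array with both additions, set against that with zinc alone, went from 0.93 to 0.08. Probes in the last blocks thus lay nearer to both fold limits than probes in the first blocks.

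**Figure D1:**
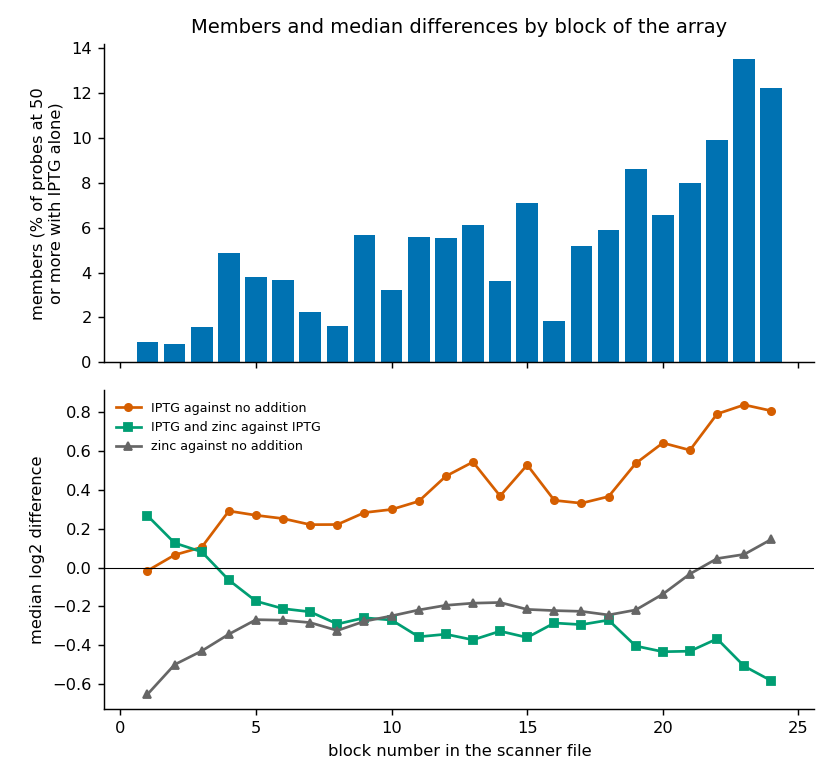
Members and array differences by block. The upper panel shows, for each of 24 blocks, the members as a percent of the probes at 50 or more with IPTG alone; the lower panel shows the median log2 difference of those probes for 3 pairs of arrays. The share is 0.913% in block 1 and 12.2% in block 24, and the median of IPTG against no addition goes from -0.02 to 0.81 across the same blocks.

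A setting that subtracts the median of each block on each array was added after the data were seen. The same limits then chose 272 probes, of which 223 were members. Its shares were 4.65%, 3.93%, 4.42% and 5.69% in blocks 1 to 6, 7 to 12, 13 to 18 and 19 to 24, a much narrower range than with the deposited values. This setting makes the block medians equal on each array, so the operation itself favours a narrower range. The source of the differences between blocks was not tested. Leaving out blocks 19 to 24 left 168 members.

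Spotted control sequences also differed between the arrays. Their sequences are not described in the files. On the scale of the table, the median of 24 spots of the first positive control was 7060.4 on the array without additions, 7825 on that with IPTG alone, 5817 under zinc and 6798 under both additions. The second positive control had medians of 3985, 7327, 3797 and 5381 in the same order. It was 1.84-fold higher with IPTG alone than without additions and 1.36-fold higher than with IPTG and zinc. It thus had the order of the members with differences under 2-fold. The medians over all listed probes, 32.5, 37.9, 29.3 and 33.4 on the same arrays, had that order too. The part of this control in the members' pattern was not tested. The SD of log2 signal over the repeat spots of a positive control was 0.07 to 0.22 on the 4 arrays.

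The members covered a wide range of signal above the limit, though not its top. Their values with IPTG alone ran from 50.4 to 8918, with a median of 222 and quartiles of 99.5 and 395. The highest listed probe on that array had 37006. Without additions the median was 59.0 (3.31 to 4209), with zinc alone 50.2 (2.60 to 4014), and with IPTG and zinc 79.5 (10.1 to 3633). Members made up 5.08% of the 1554 listed probes between 50 and 100 with IPTG alone and 5.05% of the 1346 between 100 and 200. They were 7.01% of the 1498 between 200 and 500, 5.64% of the 638 between 500 and 1000, and 3.05% of the 787 at 1000 or more. Neither dim nor bright probes dominated the set, and the share was lowest among the brightest.

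**Figure D2:**
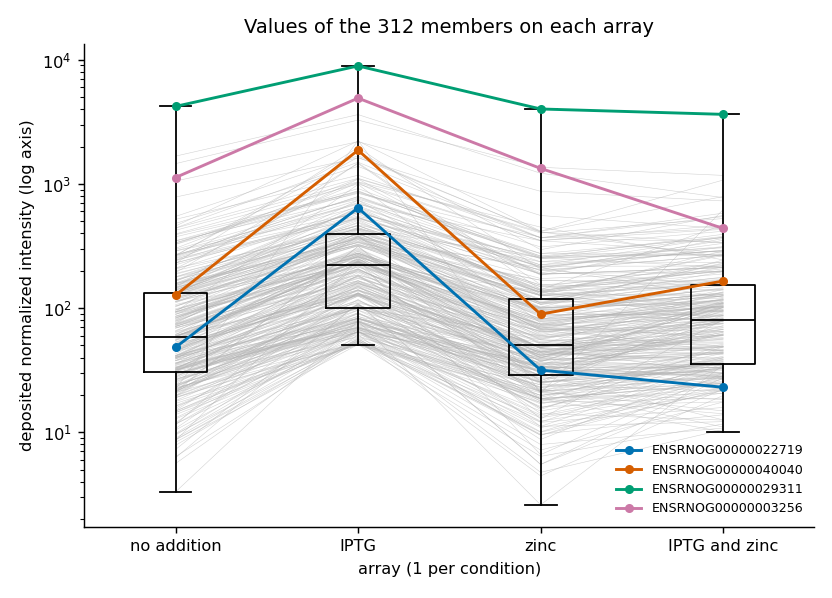
Values of the 312 members on each array, on a log axis of deposited normalized intensity. Each grey line is 1 member, boxes give quartiles and median with whiskers to the lowest and highest member, and coloured lines are the 2 members with the largest pattern and the 2 brightest; the medians are 59.0, 222, 50.2 and 79.5 from left to right.

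ENSRNOG00000022719 had the largest pattern, ranked by the smaller of its log2 differences on the 2 sides. Its value was 48.3 without additions, 641 with IPTG, 31.7 under zinc and 23.03 under both additions. It was 13.3-fold higher with IPTG alone than without additions and 27.9-fold higher than with IPTG and zinc. The array with both additions lay below each array without IPTG.

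ENSRNOG00000040040 ranked second and was brighter. Its value was 127 without additions, 1870.1 with IPTG, 89.3 under zinc and 165 under both additions. The 2 folds were 14.7 and 11.3. Here the value with both additions was 1.30-fold above that without additions and 1.85-fold above that with zinc alone.

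The 20 members with the largest pattern were at least 4.36-fold higher with IPTG alone on each side. Their values with IPTG alone ran from 50.9 to 4907 with a median of 293. Their median fold was 7.87 over no addition and 7.06 over IPTG with zinc. Of these 20, 7 lay in blocks 19 to 24, and 11 in blocks 13 to 24. Of all 312 members 144 lay in blocks 19 to 24 and 71 in blocks 13 to 18. Of the 5823 probes at 50 or more with IPTG alone, 1475 and 1424 did. At 3-fold on both sides 62 members were left, and at 4-fold 25.

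The brightest member was ENSRNOG00000029311, with 4209 without additions, 8918 with IPTG, 4014 under zinc and 3633 under both additions. It passed the limits narrowly, at 2.12-fold over no addition and 2.45-fold over IPTG with zinc. The 3 other arrays differed little from each other.

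ENSRNOG00000003256, the next brightest, had 1126 without additions, 4907 with IPTG, 1333 under zinc and 438 under both additions. It was 4.36-fold higher with IPTG alone than without additions and 11.2-fold higher than with IPTG and zinc. With both additions it was 2.57-fold lower than without any. Its spot lay in block 24; with block medians subtracted the 2 folds were 2.86 and 7.72.

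The differences that chose the members are given here as a description. Against no addition, the median log2 difference with IPTG alone was 1.64 in the members (1.01 to 6.66) and 0.34 over all 12781 listed probes. At least 2-fold higher in that pair were 18.4% of all listed probes, so this limit alone was met by 2351 probes. Among those at 50 or more with IPTG alone the shares were 21.7% higher and 3.98% lower. With zinc added to IPTG, the median difference was -1.27 in the members (-4.80 to -1.0004) and -0.24 over all listed probes, of which 8.95% were at least 2-fold lower. At 50 or more the shares were 8.67% lower and 1.99% higher. Both fold limits together were met by 637 probes (4.98%), and the level of 50 reduced these to 312.

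How far the members returned with zinc was measured as the share of the IPTG increase still present with both additions. The median share was 10.9%, with quartiles of 0.050% and 20.5% and extremes of -46.2% and 41.9%. The fold limits bound this share from above. In 78 members the value with both additions was below that without additions, and in the other 234 it was above. The value with both additions was also the higher in 57.2% of all listed probes and in 59.5% of those at 50 or more with IPTG alone. With both additions 269 members lay within 2-fold of the value without additions, 37 lay at least 2-fold above it and 6 at least 2-fold below. Of all listed probes 8.56% lay above and 6.39% below in that pair, and of those at 50 or more 9.43% and 4.29%. Most members were thus near their value without additions, as were most other probes.

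The array with zinc alone is the only one the rule did not use. No member was at least 2-fold apart between zinc alone and no addition, in either direction. Of all listed probes 0.258% lay 2-fold or more above and 1.38% below, and of those at 50 or more with IPTG alone 0.120% and 0.240%, so a count of 0 is near the background. The median log2 difference was -0.15 in the members (-0.73 to 0.76) and -0.20 over all listed probes. The count was also 0 in each direction under 5 of the 6 other settings of scale, background and blocks. With normexp, a model-based removal of the local background, 5 members were 2-fold higher and 3 lower. In that setting 0.610% of all listed probes were 2-fold higher and 1.12% lower.

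Against zinc alone, 295 of the 312 members were at least 2-fold higher with IPTG alone, beside 28.6% of the probes at 50 or more with IPTG alone. All 312 had their highest value with IPTG alone. The array with IPTG alone is the one that chose them, so this count adds little to the rule. In 251 members (80.4%) the 3 other arrays lay within 2-fold of each other. The same held for 77.8% of all listed probes and 79.9% of those at 50 or more with IPTG alone.

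In the presence of zinc, 259 of 312 members lay within 2-fold between the arrays with and without IPTG. The same held for 10463 of all 12781 listed probes and 4813 of the 5823 at 50 or more with IPTG alone, so most probes differed little here. Comparing IPTG with zinc against zinc alone, 50 members (16.03%) were at least 2-fold higher, beside 13.4% of all listed probes and 14.7% of those at 50 or more. At least 2-fold lower were 3 members, beside 4.69% and 2.68%. The median log2 difference was 0.42 in the members and 0.29 over all listed probes, and 244 of 312 members (78.2%) were above 0, beside 70.1% of all listed probes and 74.5% of those at 50 or more. Under the 6 other settings 7 to 57 members were at least 2-fold higher, and the share of all listed probes changed too. The 7 stood beside 2.29% with the mean of the blank spots removed, 50 added and quantile normalization, called blank mean removed below. The 57 stood beside 12.3% with block medians subtracted. At least 2-fold lower were 3 to 8 members, beside 2.54% to 7.74% of all listed probes. The array with both additions also served to choose the members, as the low side of a limit. The median of this pair also fell along the blocks, and members were more frequent in the later ones. The part of position in these shares was not tested.

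**Figure D3:**
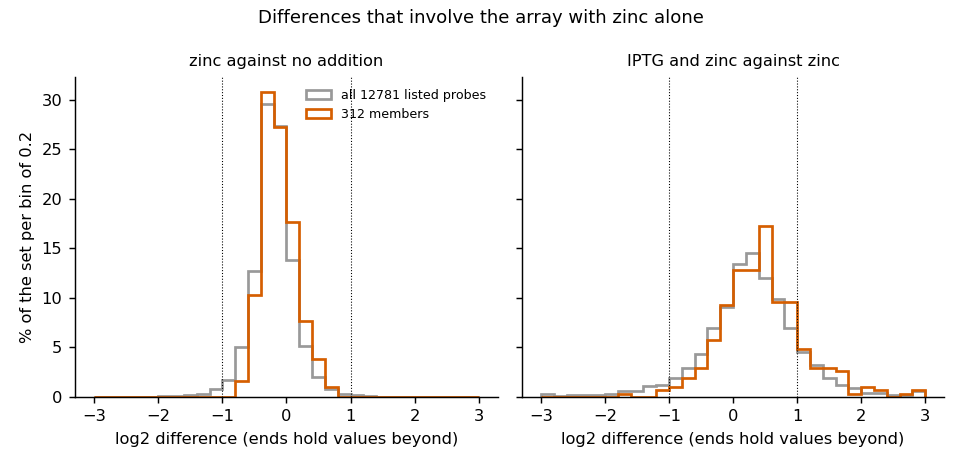
Distribution of log2 differences that involve the array with zinc alone, as a percent of each set per bin of 0.2, for the 312 members (orange) and all 12781 listed probes (grey). Dotted lines mark 2-fold; no member lies beyond them on the left panel, and 50 lie above and 3 below on the right panel.

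A few members kept a large IPTG difference with zinc, and those named here were picked after their values were seen. ENSRNOG00000003254 had 22.2 without additions, 2242 with IPTG, 20.7 under zinc and 621 under both additions. IPTG alone was 101-fold above no addition, and both additions were 30.0-fold above zinc alone, while the value with both additions was 3.61-fold below that with IPTG alone. The first 2 folds were 36.0 and 14.03 with normexp, and 38.8 and 13.2 with the mean of the blank spots removed. ENSRNOG00000015416 had 3.31, 78.8, 2.60 and 34.9 on the arrays in that order, or 23.8-fold without zinc and 13.4-fold with it. Its low values were near the blank spots, and the folds were 2.61 and 1.63 with normexp and 3.35 and 2.14 with the blank mean removed. In these 2 members both arrays with IPTG were above the arrays without it. The first kept 27.0% of its increase and the second 41.9%, the highest share of all members.

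Of the 3 members at least 2-fold lower with IPTG in the presence of zinc, 2 are named, also after their values were seen. ENSRNOG00000003256 was 3.04-fold lower. ENSRNOG00000013018 had 26.4 without additions, 106 with IPTG, 28.7 under zinc and 12.6 under both additions, and was 2.28-fold lower. Without zinc the same members were 4.36-fold and 4.03-fold higher with IPTG. For ENSRNOG00000003256 the value in zinc was 2.64-fold to 3.88-fold lower with IPTG under the 6 other settings. For ENSRNOG00000013018 that difference was under 2-fold with normexp (1.16) and with the blank mean removed (1.56), where the folds without zinc were 1.83 and 2.24.

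The members that differed most between zinc alone and no addition did so by less than 2-fold on the authors' scale. ENSRNOG00000019195 had 9.50 without additions, 67.6 with IPTG, 16.1 under zinc and 17.6 under both additions, and was 1.70-fold higher with zinc alone. ENSRNOG00000008450 had 266, 1639, 414 and 792 in that order and was 1.56-fold higher, or 2.44-fold with normexp. Their spots lay in blocks 24 and 23, where the median of the probes at 50 or more was also higher with zinc alone.

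The lowest in that pair lay in earlier blocks. ENSRNOG00000018151, in block 7, had 70.7 without additions, 259 with IPTG, 42.6 under zinc and 106 under both additions, and was 1.66-fold lower with zinc alone, or 1.06-fold with normexp. ENSRNOG00000003696, in block 1, had 61.2, 208, 39.4 and 101 and was 1.55-fold lower. With block medians subtracted its log2 difference went from -0.63 to -0.24, and that of ENSRNOG00000019195 from 0.76 to 0.49. That of ENSRNOG00000008450 went from 0.64 to 0.33. ENSRNOG00000018151, the lowest, changed little, from -0.73 to -0.65.

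Probes near the limits show how fine the selection was. Among probes that met both fold limits, those just inside the level had 50.4, 50.9 and 51.1 with IPTG alone, and those just outside had 49.8, 49.2 and 48.8. At the limit over no addition the nearest folds were 2.017, 2.021 and 2.023 inside and 1.991, 1.967 and 1.963 outside. At the limit over IPTG with zinc they were 2.0006, 2.0015 and 2.0039 inside and 1.9973, 1.9960 and 1.9943 outside. These steps are smaller than the SD of repeat control spots.

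The number of probes that passed depended on the scaling. On the authors' scale the listed probes as a whole were higher on the array with IPTG alone, by a median log2 difference of 0.34 over no addition, and with both additions they were 0.24 below that array. With the arrays scaled to the same median over the 12781 probes, 166 probes passed, and with quantile normalization 137; all of these were members. Between IPTG alone and no addition, 18.4% of listed probes were 2-fold higher and 7.80% lower on the authors' scale, 12.52% and 10.6% with a common median, and 10.8% and 11.5% with quantile normalization. Between both additions and IPTG alone the shares were 4.27% and 8.95%, then 5.87% and 5.52%, then 6.205% and 5.23%.

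Starting from the scanner intensities gave fewer probes still. With the local background removed by normexp, 65 probes passed and 58 of them were members. With the mean of the blank spots removed, 68 passed and all were members. Both settings add 50 to the signal, which shrinks differences of dim spots. The local background around member spots had a median intensity of 93.3 without additions, 172 with IPTG, 93.6 under zinc and 104 under both additions. Over all listed probes it was 78.4, 83.6, 81.2 and 86.0 in the same order. Members had to reach 50 with IPTG alone, which was not asked of all listed probes. On that array the median value was 222 in the members and 37.9 over all listed probes. Local background was not compared with probes of like brightness, so the part of brightness in this difference was not tested. No member spot was marked as poor at any gain or saturated on any array.

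**Figure D4:**
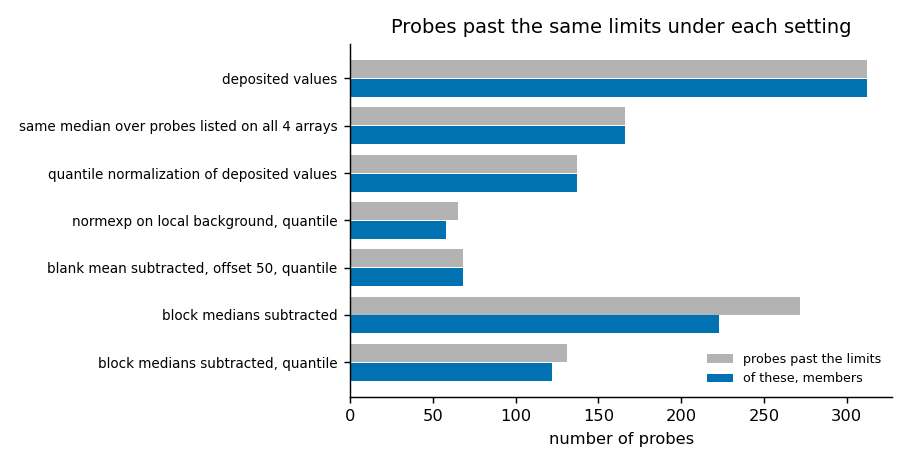
Number of probes past the same limits under 7 settings of scale, background and position (grey bars), and how many of them belong to the 312 members (blue bars). The deposited values give 312, the same median 166, quantile normalization 137 and the scanner-based settings 65 and 68.

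Under all 7 settings 41 members (13.1%) passed the limits. These had a median value of 55.5 without additions, 314 with IPTG, 55.4 under zinc and 80.9 under both additions. The lowest had 79.0 with IPTG alone and the highest 4907. Their median log2 difference with the deposited values was 2.33 for IPTG without zinc and -1.997 for zinc with IPTG. In the presence of zinc the median IPTG difference was 0.42, with 8 of the 41 at least 2-fold higher and 2 lower. In that pair 13.4% of all listed probes were higher and 4.69% lower. Of those at 50 or more with IPTG alone the shares were 14.7% and 2.68%. The 41 too lay mostly in the later blocks, with 1 in blocks 1 to 6 and 7 in blocks 7 to 12. Blocks 13 to 18 held 12 and blocks 19 to 24 held 21. In the same order these blocks held 1397, 1527, 1424 and 1475 of the 5823 probes at 50 or more.

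Of the 20 members with the largest pattern 14 were among these 41, and of the 11 members named here 4 were. The 4 are ENSRNOG00000022719, ENSRNOG00000040040, ENSRNOG00000003256 and ENSRNOG00000003254. For ENSRNOG00000022719 the lowest folds over the 7 settings were 7.32 over no addition and 9.27 over IPTG with zinc. For ENSRNOG00000040040 they were 9.30 and 7.65. The brightest member, ENSRNOG00000029311, was under the limit over no addition in 5 settings, where its fold was 1.59 to 1.94.

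The same limits were also applied with each other array in the place of IPTG alone, compared with the 2 arrays that differ from it by 1 addition. The array with both additions chose 50 of the 12781 probes (0.391%), that without additions 4 (0.0313%) and that with zinc alone 0. The array with IPTG alone chose 312 (2.44%) on this scale, on which it lay above the others as a whole. With quantile normalization the counts were 137 for IPTG alone, 42 for both additions, 2 for zinc alone and 0 for no addition. With normexp they were 65, 40, 8 and 36, which lie closer together, but the other settings did not share this. The counts were 68, 16, 2 and 0 with the blank mean removed, and 166, 55, 1 and 0 with a common median. They were 272, 35, 0 and 0 with block medians subtracted, and 131, 27, 1 and 0 with quantile normalization added to that. These settings were added for the other arrays after the data were seen.

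Empty values in the table kept few probes out. Of 5835 probes at 50 or more with IPTG alone, 12 had an empty value on another array. With empty values set to the lowest value listed on that array, 2 of the 12 passed both fold limits. Both were empty with zinc alone, 1 was empty without additions, and neither was empty with both additions.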

How the data were processed

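Total RNA from 4 cultures was hybridised to 4 single-colour arrays; per the labels' protocols, amplified amino allyl RNA was coupled to Cy5. The scanner read 27456 spots at 635 nm at 3 gains, per the file headers, and its files give the intensity of each spot and of its surroundings. The deposited table gives an intensity normalized by the authors; how it was made is not given in the sources used here. From the values, it is proportional to the scanner signal above the mean of the 1344 blank spots (lowest and highest 5 percent left out), scaled to a median of 25 per array.

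Members were chosen by the limits given above on the deposited values. The members, the lists and the limits were chosen with earlier results of these data known. No test was made, since each condition had 1 array and the rule used 3 of the 4; p-values are therefore absent, and the number of arrays limits precision. Shares over all 12781 listed probes, or over the 5823 at 50 or more with IPTG alone, stand beside the counts of members 2-fold apart. Alternatives were a common median, quantile normalization, and 2 settings from the scanner files for 20166 probes (8 poor ones left out): normexp with offset 50 on the local background, and the blank mean subtracted, floor 1, offset 50, each quantile normalized. There the level limit stayed on the deposited value. Levels of 25 and 100, folds of 1.5 and 3, and filled empty values were also tried. Block medians, alone or with quantile normalization, and leaving out blocks 19 to 24 were added after the data were seen.

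Identifiers were named by a rule: the 2 with the largest smaller difference, the 2 brightest with IPTG alone, and the 2 highest and 2 lowest for zinc alone. The rule also covered genes of 25 lists, promoters and genome neighbours, which were not analysed here because 0 genes of the RefSeq table carry an Ensembl identifier. Python 3.11.15, pandas 2.3.3, R 4.3.3 and limma 3.58.1 were used.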

Additional observations from a re-analysis of the deposited data

Results flagged for a closer look

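Opposite IPTG differences without and with zinc drew attention to 2 members. ENSRNOG00000003256 was higher with IPTG without zinc and lower with it, by a log2 difference of -1.61, and ENSRNOG00000013018 likewise by -1.19. With normexp and with the blank mean removed these were -1.52 and -1.90 for ENSRNOG00000003256, and -0.22 and -0.64 for ENSRNOG00000013018, so that the latter was no longer 2-fold lower. The rule takes members that are high with IPTG alone and low with both additions, which favours this order. In zinc, 3 of the 312 members were at least 2-fold lower with IPTG. Of all listed probes 4.69% were, and of those at 50 or more with IPTG alone 2.68%. With 1 array per condition the difference between the pairs was not tested.

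The second positive control, which is not a gene probe, gave a signal far above the blank spots that differed between arrays. The spread of its repeat spots on the array without additions, an SD of 0.22, also served as the cutoff for changes between settings. Its median value was 3985 on the array without additions, 7327 on that with IPTG alone, 3797 under zinc and 5381 under both additions.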

How the results depend on the processing

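No paired analysis was possible because each condition had 1 array and the labels give no replicate numbers. The number of probes past the limits, 312 with the deposited values, was 166 with a common median, 137 with quantile normalization, 65 with normexp, 68 with the blank mean, 131 with block medians and quantile normalization, 1025 at 1.5-fold, 62 at 3-fold and 168 without blocks 19 to 24. It stayed within 1.5 times with block medians (272), a level of 25 (395), a level of 100 (233) and filled empty values (314). Of the 131 probes, 122 were members.

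For the 312 members, the median log2 IPTG difference without zinc (1.64) was 1.42 with a common median, 1.31 with quantile normalization, 0.97 with normexp, 1.03 with the blank mean and 1.22 with block medians and quantile normalization. The median zinc difference with IPTG (-1.27) was -0.74 with normexp, -0.82 with the blank mean and -0.99 with block medians and quantile normalization. The median IPTG difference with zinc (0.42) was 0.16 with quantile normalization, 0.17 with normexp and 0.10 with the blank mean. The median zinc difference without IPTG (-0.15) ranged from -0.19 to 0.06. A change was counted where it exceeded 0.22, the largest SD of log2 signal over repeat control spots. That SD describes bright spots within 1 array. It does not measure the error of a median or of a dim spot's difference, so it served only as a cutoff. Among the named members, the IPTG difference with zinc of ENSRNOG00000018151 turned from 1.32 to -0.051 with normexp; the cause was not tested. Of the other values of named members, 145 moved by more than that SD and 118 did not. Differences of dim spots depend on the offset.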
